A study of Mus musculus with 6 samples.

Results

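The genes described here encode splicing factors and the CDC-like kinases (CLKs) that phosphorylate them, measured in the soft palate of mouse embryos. They are the 99 genes, of 21938 in the deposited expression table, whose symbols begin with Srsf, Hnrnp, Luc7l, Rbm and a number, or Sf3a or Sf3b and a number, together with Clk1 to Clk4, Tra2a, Tra2b, Son, Srrm1, Srrm2, U2af1, U2af2, Ddx5 and Ddx17. The set was selected on measured values of this same contrast, intronic RNA that was higher in the mutant libraries. Differences of its members between mutant and control are therefore a description and carry no test.

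Introns are removed from pre-mRNA by the spliceosome. U1 snRNP, with which Luc7-like proteins associate, recognises the 5′ splice site, U2AF binds the 3′ splice site, and U2 snRNP, which contains the SF3A and SF3B complexes, binds the branch point. SR proteins mostly favour the use of nearby exons, many hnRNPs repress it, and the CLKs phosphorylate the serine and arginine repeats of SR proteins and thereby control their position and activity in the nucleus. Many of these genes are known to limit their own output through retained introns or exons that expose the transcript to nonsense-mediated decay, and intron-retaining Clk1 and Clk4 RNA is known to stay in the nucleus of cultured cells.

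Bulk RNA of soft palate at E14.0 was compared between 3 mutants, Osr2-Cre;b-cateninfl/fl, numbered 5, 6 and 7, and 3 controls, numbered 1, 2 and 3. The mutants carry floxed alleles of β-catenin, the transducer of canonical Wnt signalling, and a Cre from Osr2, a gene of palatal mesenchyme; cells of other lineages in the tissue are not the usual site of this Cre. The protocol describes the controls as b-cateninfl/fl without Cre, while their genotype field reads wild type. The labels do not say whether a library is 1 embryo or a pool, so errors and p-values describe the spread between these libraries, which may be technical.

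Values are in CPM, the reads of a gene after scaling every library to the same total of 1000000. A difference is mutant minus control on the log2(CPM + 1) scale, with its standard error (SE) from limma, a linear model fitted over all 21938 genes, and it understates the change of low genes. The counted reads, read from the step between low values, were 12273250 to 15087785 in mutants and 10016715 to 12841148 in controls, and 3 reads, the limit for a gene without a read, were worth 0.199 to 0.244 CPM in mutants and 0.234 to 0.299 CPM in controls, for counting error only. Ctnnb1, which encodes β-catenin, had 584.6, 633.4 and 581.5 CPM in mutants and 698.5, 784.5 and 671.4 CPM in controls, without overlap, and its value also counts reads outside the deleted exons. Osr2, a defining gene of the mesenchyme and the Cre locus, fell to 16.1 ± 3.22 CPM in mutants, against 46.9 ± 11.2 CPM in controls (SD, n = 3 each; limma, adjusted p = 0.0285). The other listed markers of palatal mesenchyme were present in every library, from Tbx22 at 2.77 CPM or more to the collagen gene Col1a1 at 2148.3 CPM or more. The replicates with high Xist, above 100 CPM, were mutant 7 and control 3, so each group holds libraries with and without it.

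The differences were small and went both ways. Over all 99 members the median difference was 0.07 on the log2 scale, from -0.89 for Rbm24 to 0.64 for Rbm47, against a median of 0.04 over all genes and -0.02 over the 11044 genes at or above 10 CPM. The members' median was 0.02 with trimmed-mean scaling (0 over all genes), 0.03 without mutant 7 and 0.04 without control 2 (0.04 and 0.05 over all genes), and 0.12 without mutant 5 (0.03 over all genes). All 3 mutants lay above all 3 controls for 30 members (30.3%), where the same held for 17.1% of all genes and 14% of genes at or above 10 CPM. All 3 mutants lay below all 3 controls for 14 members (14.1%), against 10.8% of all genes and 15.6% of genes at or above 10 CPM. The groups overlapped for the other 55. At an adjusted p below 0.05 across all genes, 1 member was higher, Rbm4b, where 0.196% of all genes were, and 1 was lower, Rbm20, where 0.283% were; in either direction it was 0.479%. The authors' filtered list, whose filter is not stated, held 6 members, Rbm24, Rbm20, Rbm38, Luc7l3, Rbm4b and Rbm47, and 11.1% of all genes. Both members lost the call when any library other than control 2 was omitted. Since the contrast chose the set, nothing is read from these shares.

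No filter on low values was used, so all 99 members entered the fit. Of them 92 averaged at least 10 CPM, and 4 averaged under 2 CPM: the germ cell gene Rbm44, Rbm11, the antisense gene Rbm3os and the pseudogene Hnrnpa1l2-ps2. Rbm11 was listed at 0 in mutant 6. The replicates of 1 group agreed closely, with a median coefficient of variation of 7% over members against 10.5% over all genes at or above 10 CPM. Among the 30, mutant 7, the deepest library, held the highest mutant value for 23.

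**Figure D1:**
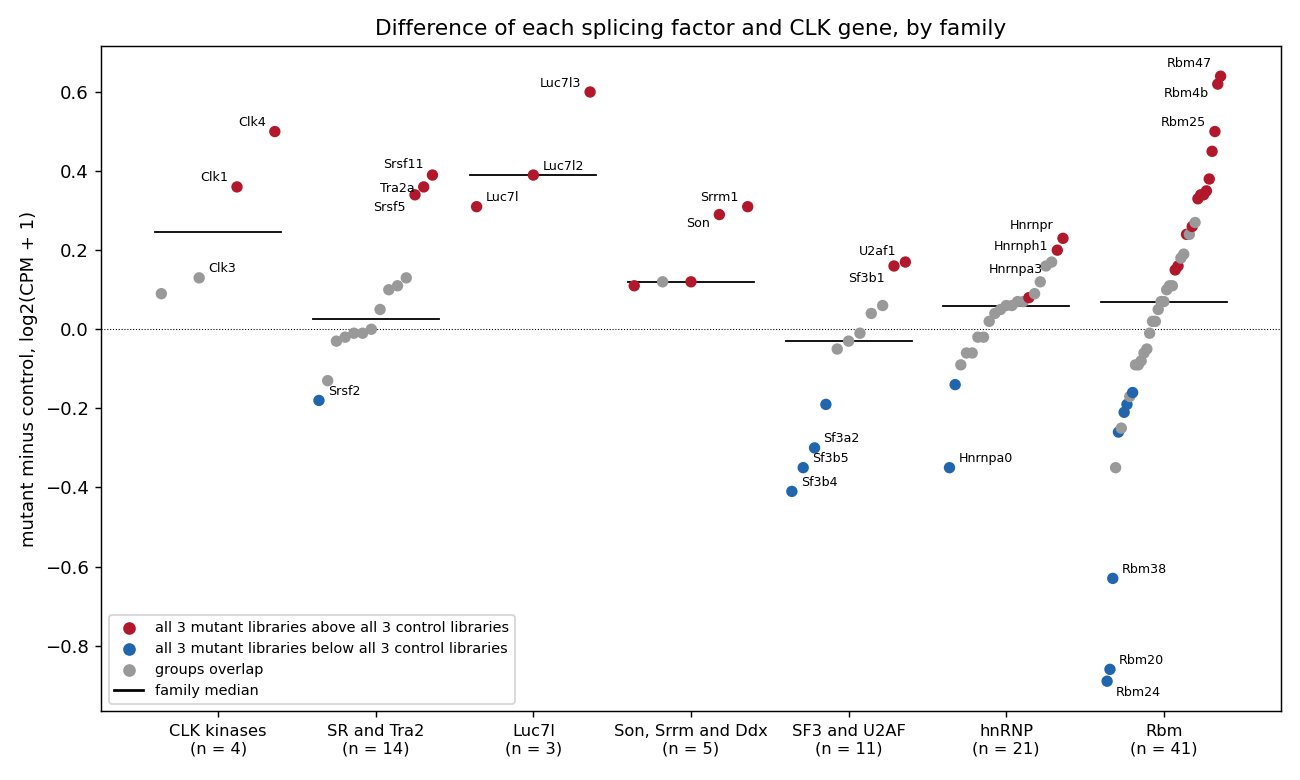
Difference between mutant and control for each of the 99 genes, on the log2(CPM + 1) scale, by family, with the genes of each family in order of their difference. Red points are genes with all 3 mutant libraries above all 3 control libraries, blue points genes with all 3 below, grey points genes with overlapping groups, and bars are family medians. CLK, Luc7l and Son, Srrm and Ddx genes all lie above 0, the SF3 and U2AF genes reach to -0.41, and the Rbm genes span the full range from -0.89 to 0.64.

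The plot of differences by family shows how the families part. The median was 0.25 for the 4 CLK genes, 0.39 for the 3 Luc7l genes and 0.12 for the 5 genes Son, Srrm1, Srrm2, Ddx5 and Ddx17. It was 0.03 for the 14 SR and Tra2 genes, 0.06 for the 21 hnRNP genes and 0.07 for the 41 Rbm genes. The 11 genes of SF3 and U2AF had a median of -0.03 and were the family with more members lower without overlap than higher. Lower were 4 (36.4%) and higher 2 (18.2%), against 10.8% and 17.1% of all genes and 15.6% and 14% of genes at or above 10 CPM.

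Among the kinases, Clk4 and Clk1 were higher in all mutants and Clk2 and Clk3 overlapped. Clk4 (chromosome 11, 51261730 to 51281766, plus strand, GRCm38) had 78.5, 80.8 and 78.1 CPM in mutants and 56.6, 58.7 and 52.2 CPM in controls, a difference of 0.50 ± 0.09. The mutants averaged 1.42-fold the controls. Clk1 (chromosome 1, 58410189 to 58424066, minus strand) had 184, 182.1 and 188.5 CPM in mutants and 154, 149.4 and 129.1 CPM in controls, a difference of 0.36 ± 0.09. Its mutant values kept within 7 CPM of each other, and the spread lay in the controls. Clk2 had 65.2, 71.8 and 76.6 CPM in mutants and 64, 68.5 and 67.7 CPM in controls (0.09 ± 0.09), and Clk3 had 45.8, 43.5 and 47.7 CPM in mutants and 40.1, 40.9 and 43.8 CPM in controls (0.13 ± 0.09). Per kilobase of annotated exon, Clk1 was highest at 22.7 CPM per kb in mutants and 17.7 in controls. This length merges the exons of all annotated transcripts, those with a retained intron included. It therefore grows with annotation, and such levels compare genes only roughly. Clk2 and Clk4 were close in mutants, at 13.4 and 13.7 CPM per kb, and apart in controls, at 12.6 and 9.63 CPM per kb, while Clk3 was lowest at 5.4 in mutants and 4.92 in controls.

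The bases before the transcription start of Clk4 and Tra2a are shown because they are the members, among 80 with a promoter in the RefSeq table (GRCm38.p6), that hold the full cAMP response element TGACGTCA, printed in capitals. That of Tra2a also holds the CCAAT box, in capitals. Each sequence covers the 250 bases upstream of the most upstream start that RefSeq lists, on the strand of the gene, chr11:51262864-51263113 for Clk4 and chr6:49264053-49264302, minus strand, for Tra2a. GENCODE places the start of its Clk4 gene model further upstream, at 51261730.
Clk4: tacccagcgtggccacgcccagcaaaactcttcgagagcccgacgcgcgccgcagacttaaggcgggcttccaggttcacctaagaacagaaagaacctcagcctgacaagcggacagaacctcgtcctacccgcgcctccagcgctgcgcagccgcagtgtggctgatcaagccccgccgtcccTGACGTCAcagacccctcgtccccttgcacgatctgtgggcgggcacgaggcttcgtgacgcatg
Tra2a: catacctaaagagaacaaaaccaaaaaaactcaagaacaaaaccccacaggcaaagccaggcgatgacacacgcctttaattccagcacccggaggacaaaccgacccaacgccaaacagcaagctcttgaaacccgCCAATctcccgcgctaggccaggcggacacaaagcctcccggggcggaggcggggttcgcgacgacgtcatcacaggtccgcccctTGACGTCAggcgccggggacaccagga
The element was found in 2.5% of the members' promoters, 3.0% of the 8163 promoters of genes at or above 10 CPM and 1.6% of all 27025, searched on both strands. A match in letters is no measure of binding.

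Of the SR and Tra2 genes, 3 were higher (21.4%) and 1 was lower (7.14%) without overlap, and the other 10 overlapped. Over all genes the shares were 17.1% and 10.8%. Over genes at or above 10 CPM, a level that all 14 reached, they were 14% and 15.6%. Srsf11, an SR-related protein that also helps with 3′ splice sites, had 314.2, 343.3 and 363.9 CPM in mutants and 258.1, 236.8 and 284.1 CPM in controls (0.39 ± 0.10). Tra2a, an SR-like activator of exons rich in GAA, had 178.5, 178.5 and 189.7 CPM in mutants and 135.6, 144.3 and 144.6 CPM in controls (0.36 ± 0.08). Its partner Tra2b differed by 0.13 with overlap. Srsf5 had 241.2, 240.5 and 281.9 CPM in mutants and 196.1, 219.6 and 184.7 CPM in controls (0.34 ± 0.10), and 27.8% of its 50-base words also occur in a pseudogene, so its reads may be split between copies.

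Most other SR genes overlapped between the groups, with Srsf2 an exception. Srsf2, which binds exonic enhancers and is concentrated in nuclear speckles, was the member below all controls, with 202.1, 221.9 and 218.1 CPM in mutants and 246.3, 247.4 and 234.6 CPM in controls (-0.18 ± 0.08). Srsf1, the founding member, had 414.7, 462.1 and 455.8 CPM in mutants and 480.5, 422.6 and 460.6 CPM in controls (-0.03 ± 0.09). Srsf12, a low member, had 12.4, 9.43 and 8.35 CPM in mutants and 12.6, 9.08 and 11.5 CPM in controls (-0.13 ± 0.19). Srsf3, Srsf6, Srsf7, Srsf9 and the pseudogene Srsf3-ps lay between -0.02 and 0.05, and Srsf4 and Srsf10 at 0.11 and 0.10, all with overlapping groups.

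All 3 Luc7-like genes were higher in every mutant, where 17.1% of all genes were. Luc7l3 (chromosome 11, 94287890 to 94321988, minus strand) had 407.7, 426.7 and 533.6 CPM in mutants and 294.7, 270.7 and 329.8 CPM in controls (0.60 ± 0.12). Luc7l2 had 412.6, 399.7 and 419.6 CPM in mutants and 316.8, 301.5 and 323.2 CPM in controls (0.39 ± 0.08). Luc7l had 144.2, 139.3 and 162.2 CPM in mutants and 114.1, 120.9 and 122.6 CPM in controls (0.31 ± 0.09). The family resembles the yeast U1 protein Luc7, which helps choose 5′ splice sites. Per kilobase of annotated exon, Luc7l3 had the highest level of the Luc7-like genes, at 62.7 CPM per kb in mutants and 41.0 in controls.

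Son and Srrm1, large proteins of nuclear speckles with serine and arginine repeats, were also higher. Srrm1 had 350.5, 356.9 and 403.8 CPM in mutants and 289.7, 287.3 and 319.7 CPM in controls (0.31 ± 0.09), and Son had 945.4, 951.1 and 1010 CPM in mutants and 825.3, 796.6 and 760.4 CPM in controls (0.29 ± 0.09). Their relative Srrm2, the scaffold of speckles, overlapped, with 1001, 1023 and 1082.6 CPM in mutants and 857.7, 1001.5 and 1012 CPM in controls (0.12 ± 0.11). The paralogous RNA helicases Ddx17 and Ddx5 did not overlap but differed little, by 0.12 ± 0.09 and 0.11 ± 0.09. Ddx5 had 778.3, 797.6 and 800.3 CPM in mutants and 774.2, 681.6 and 742.9 CPM in controls, so its lowest mutant and highest control nearly touched.

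**Figure D2:**
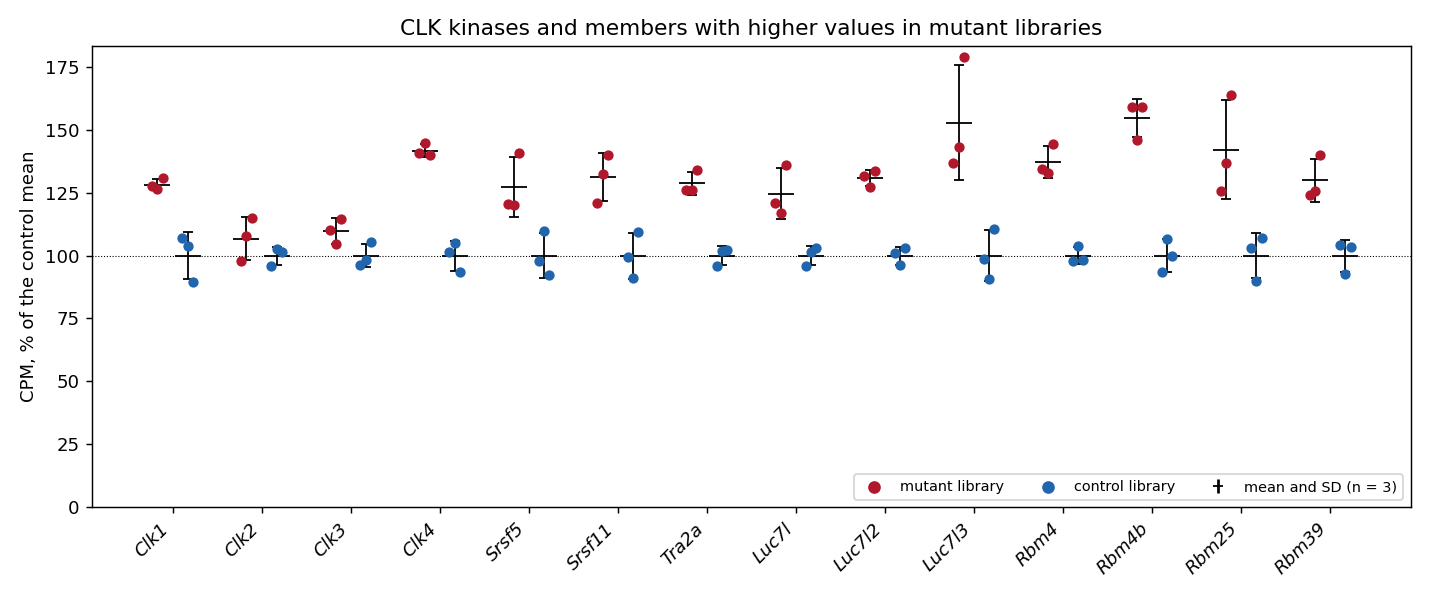
CPM of 14 kinase, SR, Luc7l and Rbm genes in each library, as a percent of the control mean of the same gene, with mutants left of controls for each gene. Points are libraries and bars are means with SD (n = 3). Clk4 averaged 141.7 ± 2.6% in mutants, Luc7l3 152.8 ± 22.7% and Rbm4b 154.6 ± 7.7%, while Clk2 averaged 106.7 ± 8.6% with overlapping points.

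Among the SF3 subunits, Sf3b4, Sf3b5 and Sf3a2 were lower, Sf3b1 was slightly higher and the others overlapped. Sf3b4, which holds U2 snRNP on the pre-mRNA near the branch point and whose human form is mutated in a craniofacial syndrome, had 19.5, 22.8 and 21.7 CPM in mutants and 26.6, 30.9 and 28.4 CPM in controls (-0.41 ± 0.11). A pseudogene shares 49.3% of its 50-base words, so its reads may be split. Sf3b5, a small subunit, had 15.3, 17.5 and 17 CPM in mutants and 20.6, 22.6 and 21.2 CPM in controls (-0.35 ± 0.11). Sf3a2 had 31.9, 35.8 and 39.4 CPM in mutants and 44.7, 44.9 and 42.8 CPM in controls (-0.30 ± 0.10). For these 3 genes every mutant stood below every control.

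The branch point binding subunit Sf3b1 had 446.4, 474.2 and 475.7 CPM in mutants and 434.5, 397 and 414.4 CPM in controls (0.16 ± 0.08), and was the Sf3 member above all controls. Sf3a3 had 69.9, 81.1 and 78.9 CPM in mutants and 75.6, 66.8 and 78.2 CPM in controls (0.06 ± 0.10). Sf3b2 had 381.3, 460.3 and 481 CPM in mutants and 426.4, 392.4 and 460.8 CPM in controls (0.04 ± 0.11), so both overlapped. Sf3b3, Sf3b6 and Sf3a1 overlapped as well, at -0.01, -0.03 and -0.05. The subunits of U2AF went apart: U2af2, which binds the polypyrimidine tract, had 123.1, 134.2 and 128.1 CPM in mutants and 147.8, 145.7 and 146.2 CPM in controls (-0.19 ± 0.08), and U2af1, which reads the terminal AG, had 25.4, 27.6 and 27.3 CPM in mutants and 24.2, 21.9 and 24.9 CPM in controls (0.17 ± 0.11). Copies elsewhere in the genome share 59.4% of the 50-base words of U2af1 and 29.9% of those of U2af2.

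**Figure D3:**
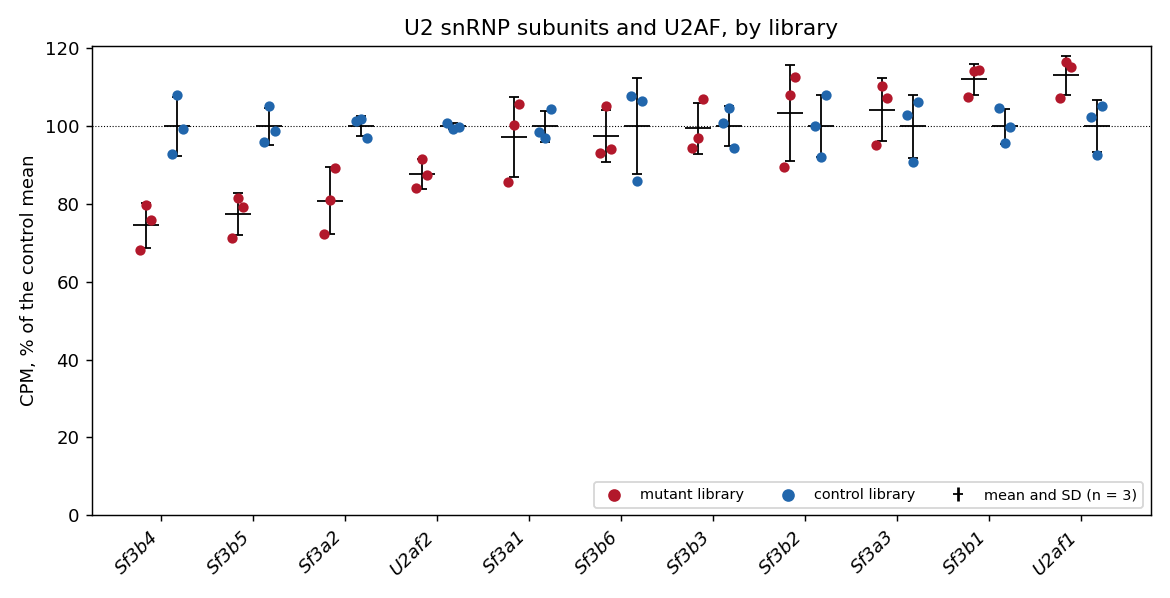
CPM of the 9 SF3 and 2 U2AF genes in each library, as a percent of the control mean of the same gene, with mutants left of controls for each gene. Points are libraries and bars are means with SD (n = 3). Sf3b4 averaged 74.5 ± 5.9% in mutants, Sf3b5 77.3 ± 5.4% and Sf3a2 80.9 ± 8.5%, while Sf3b1 averaged 112.1 ± 4.0% and U2af1 113.1 ± 5.0%.

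The hnRNPs, abundant proteins that coat nascent RNA, mostly overlapped between the groups. Of 21 genes, 3 were higher (14.3%) and 2 lower (9.52%) without overlap, and 16 overlapped. Over all genes the shares were 17.1% and 10.8%, and over genes at or above 10 CPM they were 14% and 15.6%. Hnrnpa0 was the largest difference, with 194.8, 220.5 and 197.4 CPM in mutants and 250.3, 267.4 and 262.6 CPM in controls (-0.35 ± 0.09). Hnrnpl, which binds CA repeats, had 248.5, 282.2 and 282.1 CPM in mutants and 290.8, 309.3 and 295.6 CPM in controls (-0.14 ± 0.09). Hnrnpab had 444.2, 522.5 and 504.5 CPM in mutants and 519.7, 474 and 570.2 CPM in controls, with overlap (-0.09 ± 0.11).

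On the higher side, Hnrnpr had 326.7, 351.7 and 365.1 CPM in mutants and 299.6, 280.1 and 307.6 CPM in controls (0.23 ± 0.09). Hnrnph1, which binds runs of G, had 688.4, 734.5 and 761.3 CPM in mutants and 652.7, 617.4 and 634.7 CPM in controls (0.20 ± 0.09). Hnrnpa3 had 239.2, 256.7 and 250.6 CPM in mutants and 239.6, 192.7 and 233.4 CPM in controls (0.17 ± 0.10, and 0.07 without control 2), with overlap at the edge. Hnrnpa2b1 and Hnrnpu, both at 995.5 CPM or more in every library, differed by 0.16 and 0.12, also with overlap. Per kilobase of annotated exon, with the limit given for the CLK genes, the highest levels of all members were those of Hnrnpab, Hnrnpa2b1 and Hnrnpf. They had 176, 183 and 164 CPM per kb in mutants and 187, 164 and 161 CPM per kb in controls. Hnrnpf and Hnrnpa1 have pseudogenes that share 49.0% and 46.4% of their 50-base words.

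The Rbm genes, named only for an RNA-binding domain, held both ends of the range. Of 41, 13 were higher (31.7%) and 7 lower (17.1%) without overlap. The shares were 17.1% and 10.8% over all genes, and 14% and 15.6% over genes at or above 10 CPM. Rbm4b (chromosome 19, 4756497 to 4767065, plus strand), a splicing regulator, had 114.7, 105.2 and 114.9 CPM in mutants and 67.4, 77 and 72.1 CPM in controls (0.62 ± 0.09). Its neighbour and paralog Rbm4 (chromosome 19, 4784293 to 4793901, minus strand) had 83.1, 82.3 and 89.3 CPM in mutants and 60.6, 64.2 and 60.9 CPM in controls (0.45 ± 0.08). The model Gm21992 overlaps both, on the strand of Rbm4, and it overlapped between groups at 34.47 ± 1.04 CPM in mutants and 31.03 ± 8.7 CPM in controls (SD, n = 3 each). Rbm4 shares 66.5% of its 50-base words with this model and with Rbm4b, and Rbm4b shares 21.7%, so their values are uncertain in part.

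The promoter of Rbm4b, the member called higher, is shown with that of Rbm24, the member with the most negative difference. They are read from chr19:4756275-4756524 and chr13:46418050-46418299, both on the plus strand. Capitals mark the CCAAT box, which stands in Rbm4b in 2 places and as ATTGG, on the opposite strand.
Rbm4b: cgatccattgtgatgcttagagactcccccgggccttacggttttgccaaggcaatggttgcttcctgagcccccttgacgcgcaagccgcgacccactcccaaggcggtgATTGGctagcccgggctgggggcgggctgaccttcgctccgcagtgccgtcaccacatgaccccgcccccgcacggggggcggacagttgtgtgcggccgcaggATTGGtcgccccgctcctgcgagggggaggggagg
Rbm24: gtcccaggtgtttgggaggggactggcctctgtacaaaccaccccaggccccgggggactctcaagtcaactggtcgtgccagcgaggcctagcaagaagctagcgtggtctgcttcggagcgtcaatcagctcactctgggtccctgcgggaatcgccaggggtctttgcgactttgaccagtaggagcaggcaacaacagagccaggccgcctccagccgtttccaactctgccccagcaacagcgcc
The CCAAT box was found in 47.5% of the members' promoters, 37.0% of those of genes at or above 10 CPM and 34.5% of all promoters. The ETS motif CCGGAAG stood in 22.5%, 14.7% and 7.1% of these, and the letters CTTTGAT, the core bound by TCF and LEF, the DNA partners of β-catenin, in 1.2%, 2.3% and 3.3%. The only member with CTTTGAT was Rbm43. The CCAAT box stood in promoters of higher members such as Rbm4b and Tra2a and of lower ones such as Hnrnpa0 and Srsf2. It was not found in those of the higher Clk4 and Rbm25 or the lower Rbm24, so the printed pair does not stand for the members. The median GC content of the members' promoters was 61.0%, close to the 60.8% of genes at or above 10 CPM.

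Rbm25 and Rbm39, regulators of splice site choice that carry arginine-rich repeats, were higher at high levels. Rbm25 had 445.9, 485.4 and 580.3 CPM in mutants and 365.3, 319.2 and 379.1 CPM in controls (0.50 ± 0.12). Rbm39, a relative of U2af2, had 464, 470.3 and 523.1 CPM in mutants and 389.3, 346.8 and 386.5 CPM in controls (0.38 ± 0.09). Rbm5 and Rbm6, neighbours on chromosome 9, differed by 0.34 and 0.33 without overlap, and were named after their values were seen, as was their relative Rbm10, which overlapped at -0.09. The others above all controls, Rbm12b2, Rbm26, Rbm33, Rbm12, Rbm41 and Rbm12b1, differed by 0.15 to 0.35, and the paralogs Rbm12b1 and Rbm12b2 share 63.1% and 53.8% of their 50-base words with each other.

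Rbm47, an RNA-binding protein of epithelia, had the largest positive difference, 0.64 ± 0.20, and a wide spread; without mutant 7 it was 0.42, below Rbm4b at 0.60 and Luc7l3 at 0.49. It had 27.9, 24.9 and 42.5 CPM in mutants and 16.9, 23.7 and 18.6 CPM in controls, so mutant 6 and control 2 nearly touched. The 12 epithelial markers pointed the same way in 11 cases, with summed levels of 1360.1 to 2006.6 CPM in mutants and 1053.7 to 1760.4 CPM in controls, which overlap. No epithelial marker was at 0, and 0 passed the threshold (limma, 2 at an unadjusted p below 0.05). Their part in the Rbm47 difference was not tested.

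The lowest members were Rbm genes known from muscle. Rbm24, which promotes muscle-specific exons, had 16.1, 16.4 and 17.1 CPM in mutants and 40.7, 24 and 32 CPM in controls (-0.89 ± 0.18). Rbm20 (chromosome 19, 53677306 to 53867080, plus strand), which shapes titin splicing in striated muscle, had 10.7, 10 and 12.2 CPM in mutants and 21.4, 18 and 23 CPM in controls (-0.86 ± 0.14). Rbm38, a regulator of mRNA stability and splicing linked to myoblast differentiation, had 8.8, 10 and 9.94 CPM in mutants and 12.6, 15.9 and 18 CPM in controls (-0.63 ± 0.16). In all 3 the mutants were tightly grouped below the controls. The other 4 below all controls, Rbm42, Rbm15b, Rbm18 and Rbm8a, a core protein of the exon junction complex, differed by -0.26 to -0.16, and 92.3% of the 50-base words of Rbm42 also occur in a read-through model.

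Skeletal muscle markers moved with these genes. Of 15 markers, 8 fell at an adjusted p below 0.05 in limma, where 0.283% of all genes did. Of the 15, 14 were lower without overlap, where 10.8% of all genes were. Their summed level was 4851.6, 5988.4 and 4962.6 CPM in mutants and 15282.8, 7282.2 and 11048.2 CPM in controls. None of the 15 was at 0 in any library. Myog, a driver of myoblast differentiation, fell to 21.6 ± 1.42 CPM in mutants, against 64.1 ± 15.3 CPM in controls (SD, n = 3 each; limma, adjusted p = 0.0276). Among controls, the marker sum was lowest in replicate 2, as were Rbm24 and Rbm20, and highest in replicate 1, as was Rbm24. Rbm20 and Rbm38 were highest in replicate 3, and Rbm38 was lowest in replicate 1, where the marker sum was highest. In bulk tissue fewer muscle cells and less RNA per muscle cell cannot be told apart, and the part of the muscle markers in these 3 differences was not tested.

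**Figure D4:**
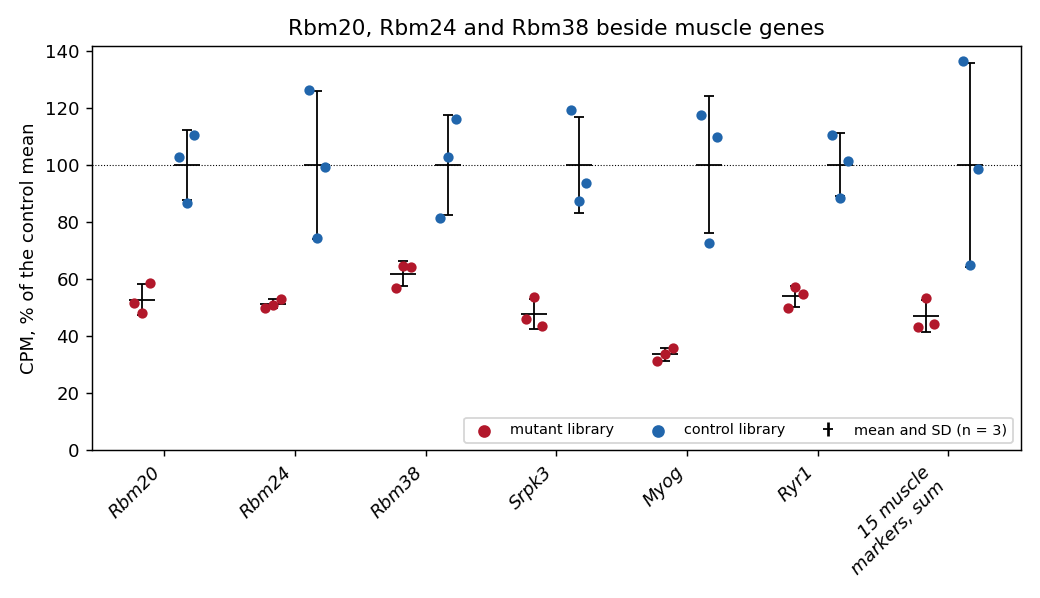
CPM of Rbm20, Rbm24, Rbm38, the muscle kinase Srpk3, the muscle genes Myog and Ryr1 and the sum of 15 muscle markers in each library, as a percent of the control mean, with mutants left of controls. Points are libraries and bars are means with SD (n = 3). Mutants averaged 52.7 ± 5.4% for Rbm20, 51.3 ± 1.6% for Rbm24, 61.8 ± 4.4% for Rbm38 and 47.0 ± 5.6% for the marker sum.

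Markers of other cell types were compared as well. The summed level of 8 erythroid markers was 782.8, 1371.5 and 1316 CPM in mutants and 1607.6, 2807 and 4762.5 CPM in controls. All 8 were lower without overlap, where 10.8% of all genes were. Within each group the libraries stood in the same order for this sum as for Rbm38, which was not so for Rbm20 or Rbm24. The summed level of 8 multiciliated cell markers was 232.3 to 302.5 CPM in mutants and 70 to 231.3 CPM in controls, so that the nearest libraries all but touched. All 8 of these markers had a positive difference (median 1.03), and 5 were higher without overlap (62.5%), where 17.1% of all genes were. None of either list passed the threshold (limma, 8 and 6 at an unadjusted p below 0.05) and no marker of either was at 0. Sums of neuronal, endothelial, macrophage and palatal mesenchyme markers overlapped between the groups, but single genes differed. The mesenchyme sum is mostly Col1a1 and Col1a2. Of 14 mesenchyme markers 2 had a positive difference (median -0.26), and 2, Osr2 and Mn1, were lower without overlap (14.3%). Of 10 neuronal markers 0 had a positive difference (median -0.58), all with overlap. Of 8 macrophage markers 0 had a positive difference, and 3 were lower without overlap (37.5%). The part of these cell types in the splicing factor values was not tested.

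The intronic RNA for which the set was picked can be seen in noncoding gene models that lie inside introns of coding genes on the same strand. Their summed level over 1275 models was 6012, 4727 and 5347 CPM in mutants and 2848, 3766 and 2693 CPM in controls. Of them 670 (52.5%) were higher in every mutant and 1 (0.0784%) lower, against 17.1% and 10.8% of all genes. They show the kind of signal on which the set was picked and give it no separate support. Of these models 4 lie in members. A930004J17Rik in Srsf4 had 30.8, 28.97 and 31.94 CPM in mutants and 20.88, 23.86 and 17.44 CPM in controls, while Srsf4 itself overlapped. Gm43362 in Srsf11 had 8.39, 7.15 and 9.54 CPM in mutants and 4.64, 4.89 and 5.37 CPM in controls. Gm37436 in Rbm6 had 3.16 ± 0.82 CPM in mutants and 1.39 ± 0.06 CPM in controls, and Gm43775 in Rbm47 had 3.42 ± 0.61 CPM in mutants and 1.44 ± 0.97 CPM in controls (SD, n = 3 each). All 4 were higher in every mutant. A value per gene does not tell spliced from unspliced RNA, and no source used here says whether strand was used in counting.

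Gene structure in GENCODE, which matched 98 of the 99 members to 1 gene, gives a further view. Among the 89 coding members at or above 10 CPM, the difference went with the summed length of annotated exons, with a Spearman rho of 0.54 across genes, against 0.33 over 9921 other coding genes at that level. The rho with the genomic span was 0.39 for members and 0.27 for the others, and with the number of transcripts annotated with a retained intron 0.29 and 0.16. It was 0.30 and 0.25 with the largest number of introns, and 0.28 and 0.13 with transcripts annotated for nonsense-mediated decay. With mean CPM it was 0.29 and 0.05, so among members the rho with retained-intron transcripts did not stand out. Genes share libraries and their depth and are no replicates, so these are descriptions. Members with 4 or more retained-intron transcripts had a median difference of 0.12, with 10 of 24 higher (41.7%) and 2 lower (8.3%) without overlap. Members with none had a median of 0.02, with 7 of 23 higher (30.4%) and 4 lower (17.4%). The median level of these classes was 250 and 83.9 CPM, and the part of level was not tested. In the other coding genes the median differences were 0.04 and -0.07 for these classes, at median levels of 54.0 and 32.9 CPM. Of these genes 22.2% and 9.1% were higher without overlap, and 11.4% and 19.0% were lower. Clk1 and Clk4 each have 7 such transcripts, Srsf11 has 11 and Rbm20 has 0.

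**Figure D5:**
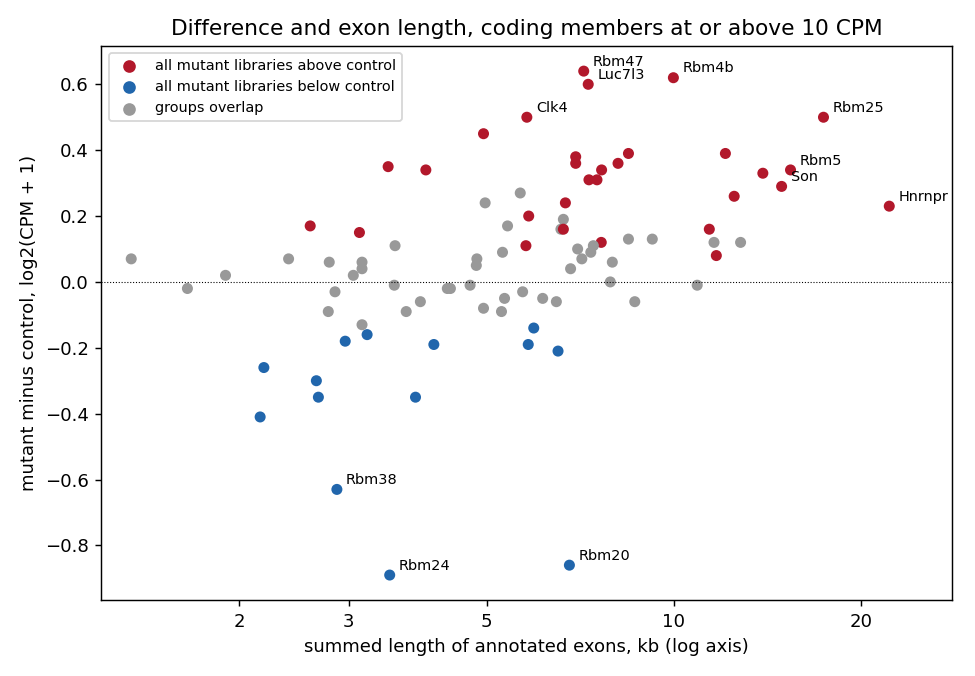
Difference between mutant and control on the log2(CPM + 1) scale against the summed length of annotated exons in kb, on a log axis, for the 89 coding members at or above 10 CPM. Points are genes, red with all mutants above all controls, blue with all below and grey with overlap. Long genes such as Rbm25, at 17.4 kb, and Hnrnpr, at 22.2 kb, lie above 0. The genes with all mutants below run from 2.16 kb for Sf3b4 to 6.79 kb for Rbm20. Rbm15b at 6.51 kb, Hnrnpl at 5.95 kb and Rbm18 at 5.83 kb are close to Rbm20.

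Genes of the same pathway outside the set were followed in lists of listed and measured genes. In 27 genes of SR-related proteins and speckle partners, 2 rose and 0 fell at an adjusted p below 0.05, against 0.196% and 0.283% of all genes. Without overlap 16 were higher (59.3%) and 2 lower (7.41%), against 17.1% and 10.8% of all genes. Over genes at or above 10 CPM, a level that 25 of the 27 reached, these shares were 14% and 15.6%. The median difference was 0.25, against -0.02 over genes at that level. Pnisr, a serine and arginine-rich protein that binds pinin, rose to 378.5, 372.1 and 416.8 CPM in mutants, against 244.4, 244.8 and 256.8 CPM in controls (0.64 ± 0.08; limma, adjusted p = 0.0285). Srek1, a splicing regulator with similar repeats, rose to 230.3, 226.6 and 272.7 CPM in mutants, against 165, 159.9 and 161.2 CPM in controls (0.58 ± 0.09; limma, adjusted p = 0.0448). Nktr, a cyclophilin with such repeats, had 391.3 ± 31.8 CPM in mutants and 292 ± 12.6 CPM in controls and did not pass (SD, n = 3 each; limma, adjusted p = 0.0724). In limma no gene of the table passed when mutant 5, mutant 6, control 1 or control 3 was omitted (unadjusted p below 0.05 in 4100, 4023, 3806 and 3878 genes), and without mutant 7 only 2 passed, both lower (2916 at an unadjusted p below 0.05). The rises given here, those of the nuclear RNAs included, were thus lost without any of these 5 libraries, and the falls without the first 4.

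Of 14 other kinases, phosphatases and transport factors of SR proteins, 0 passed (limma, 3 at an unadjusted p below 0.05), with a median of 0.12. Srpk3, the muscle member of the SR protein kinases, had 5.79, 6.77 and 5.5 CPM in mutants and 15, 11 and 11.8 CPM in controls (-0.95 ± 0.17; limma, adjusted p = 0.0546), beside the muscle marker values above. The transcription and splicing kinases Cdk12 and Prpf4b had 172.6 ± 16.1 and 347.4 ± 23.2 CPM in mutants and 131.5 ± 10.3 and 266.9 ± 26.9 CPM in controls (SD, n = 3 each; limma, adjusted p = 0.0938 and 0.102).

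The core of the spliceosome had a median slightly below 0. Of 47 core snRNP genes 0 passed (limma, 8 at an unadjusted p below 0.05). The median was -0.08, against -0.02 over genes at or above 10 CPM, a level that 45 of the 47 reached. Without overlap 4 were higher (8.51%) and 7 lower (14.9%), against 14% and 15.6% of genes at that level. Prpf19, the ubiquitin ligase of the active spliceosome, had 89.6 ± 9.41 CPM in mutants and 110.2 ± 2.86 CPM in controls (SD, n = 3 each; limma, adjusted p = 0.135), while Prpf3, of the U4/U6 snRNP, had 66.7 ± 1.05 CPM in mutants and 55.8 ± 1.2 CPM in controls (limma, adjusted p = 0.133). The helicase Dhx16 had 81.6 ± 8.29 CPM in mutants and 65.5 ± 3.9 CPM in controls (limma, adjusted p = 0.141). Of 9 genes of the minor spliceosome 0 passed (limma, 3 at an unadjusted p below 0.05; median 0.17), with Snrnp48 at 68.2 ± 3.79 CPM in mutants and 49.3 ± 1.38 CPM in controls (limma, adjusted p = 0.0586).

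Of 14 genes of the exon junction complex and nonsense-mediated decay 0 passed (limma, 4 at an unadjusted p below 0.05; median 0.07). The decay factors Upf3b and Upf2 had 83.8 ± 16.7 and 137.9 ± 15.1 CPM in mutants and 50.9 ± 6.43 and 102.1 ± 7.96 CPM in controls (SD, n = 3 each; limma, adjusted p = 0.0708 and 0.0874). Of 47 other splicing regulators 0 passed (limma, 7 at an unadjusted p below 0.05; median 0). Mbnl2, a muscleblind protein, had 266 ± 7.31 CPM in mutants and 195.3 ± 10.1 CPM in controls (limma, adjusted p = 0.0571), and Pcbp1, a poly(C)-binding protein, had 155 ± 5.67 CPM in mutants and 198.7 ± 2.59 CPM in controls (limma, adjusted p = 0.0708).

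Among these lists the largest median was that of RNAs that stay in the nucleus. Of 16 such RNAs 2 rose and 0 fell, against 0.196% and 0.283% of all genes, and the median difference was 0.46. Without overlap 6 were higher (37.5%) and 1 lower (6.25%), against 17.1% and 10.8% of all genes and 14% and 15.6% of genes at or above 10 CPM. Kcnq1ot1, an imprinted antisense RNA, rose to 1396.1 ± 141 CPM in mutants, against 728.5 ± 62.3 CPM in controls (SD, n = 3 each; limma, adjusted p = 0.0276), and Mir99ahg, a microRNA host, rose to 102.3 ± 11.1 CPM in mutants, against 50.7 ± 8.9 CPM in controls (limma, adjusted p = 0.0308). Malat1, which gathers at the nuclear speckles where Son, Srrm2 and many SR proteins are found, had 18269.2, 15225.2 and 17560.8 CPM in mutants and 8889.4, 10497.7 and 9477 CPM in controls and did not pass (0.82 ± 0.20; limma, adjusted p = 0.0854). Neat1, the RNA of paraspeckles, had the largest difference of the list but overlapping groups, with 290.4, 130.5 and 230.8 CPM in mutants and 50.7, 132.9 and 41.2 CPM in controls (1.64 ± 0.42; limma, adjusted p = 0.0934). Malat1 and Neat1 were named after their values were seen.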

How the data were processed

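Soft palate RNA of 3 mutant and 3 control mouse libraries was sequenced on a NextSeq 500, with RNA integrity above 9, per the series' design text. Per the submitters' processing notes STAR and mm10 were used, with no version; the counting step, annotation, library kit and strand are not given in the sources used. The authors deposited CPM values per gene with a constant of 0.0001 added, as read from the values, in a table of 21938 genes and a filtered list of 2432 with identical values; 0 columns of sample values went unused.

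Counts were not recovered: 63.7% to 68% of low values were whole reads within 0.02 of a read. Values were taken as log2(CPM + 1) with no filter and fitted with limma 3.58.1 (R 4.3.3), with an intensity trend and Benjamini-Hochberg adjustment over all genes at 0.05. The fit was tested on simulated data. No pair of libraries correlated above 0.988. Levels per kb divide CPM by the merged exon length of all annotated transcripts of a gene, which is not the length of its mRNA.

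Members and gene lists were chosen with earlier results of these data known. Genes named are fixed members, the largest differences in each direction of each family, called genes, and up to 3 genes of each list with the smallest p. Positions, transcripts and overlaps come from GENCODE vM21 (GRCm38, the assembly mm10 names), matched by symbol for 97.4% of genes. Shared sequence is the share of 50-base words of the longest coding transcript found in other genes' transcripts. Promoters come from the RefSeq table. The alternatives changed the pseudocount, filter, scaling, variance trend, threshold and sex covariate, and left out each library. Trimmed-mean scaling was computed without read weights, since no counts were at hand.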

Additional observations from a re-analysis of the deposited data

How the results depend on the processing

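With the adjusted-p threshold, counts of calls depended on the setting and on single libraries; the cause was not tested. Against 105 genes, 1 member higher and 1 lower, limma without the variance trend called 0 genes, 0 members higher and 0 lower (4516 genes and 28 members at an unadjusted p below 0.05), and so did the fit with sex read from Xist (0, 0 and 0; 4356 and 31). At an adjusted p below 0.1 there were 999 genes, 12 members higher and 4 lower. A pseudocount of 5, a filter at 1 CPM and scaling to the median of genes at or above 10 CPM each gave 2 members higher. Leaving out each library gave 0 to 452 genes, 0 to 3 members higher and 0 to 2 lower, the highest of each without control 2, and 2916 to 5002 genes at an unadjusted p below 0.05. Members above all controls numbered 31 to 47 in these fits, but a count of non-overlapping genes cannot fall with fewer libraries, and the share of all genes was then 20.5% to 26.6% (22% for the 47, without mutant 5). With every library the count was 30 (17.1% of all genes), 35 with median scaling (18.6%) and 21 with trimmed-mean scaling (14.4%). The members' median ranged from 0.02 to 0.12 over all settings.

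Of 54 named members, 44 kept their sign in all 13 settings, among them all 32 whose groups did not overlap; Srsf1, Srsf3, Srsf3-ps, Srsf6, Srsf7, Srsf9, Hnrnpk, Hnrnpul1, Sf3b2 and Sf3a3 did not. Rbm20 ranged from -0.96 to -0.79 and Rbm4b from 0.57 to 0.67 without single libraries. No paired analysis was possible because the mutants and controls share no replicate number. With 3 libraries a group and no counts, differences of low genes are limited by depth.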
